A study of Mus musculus with 4 samples.

Results

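The genes described here encode the proteins of the cytosolic ribosome, measured in macrophages from the peritoneum of wild type and CD13 knock out mice. Members were taken by gene symbol, namely Rpl or Rps with a number, and Rplp0, Rplp1, Rplp2 and Rpsa. Of 59 genes with such a symbol in the platform annotation, 51 had a probe above background on at least 2 of the 4 arrays. They made up 51 of the 10335 genes and unnamed probes tested, with 30 genes of the large (60S) and 21 of the small (40S) subunit. Where a gene had several such probes, the probe with the highest mean deposited intensity stood for it. No measured difference between the groups entered this choice. The remaining 8 genes, Rpl14, Rpl17, Rpl39l, Rpl3l, Rpl6, Rps20, Rps23 and Rpsa, had no probe that passed and are not described further. All 51 measured genes were above background on all 4 arrays.

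Each group had 2 arrays, WT 1 and WT 2 for wild type and KO 1 and KO 2 for the knockout, all from C57BL/6 mice. The labels give no age, sex or treatment and describe the knockout only as CD13 knock out, and the cells were resting per the series text. That text allows for bone marrow derived as well as peritoneal cells, and the labels of all 4 arrays say peritoneal. No source used here gives the animals behind an array or the deleted part of the gene. The p-values therefore cover only the spread between arrays, and this spread may be technical.

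The cytosolic ribosome translates messenger RNA. Its small subunit binds the message and decodes it, and its large subunit joins the amino acids. The proteins of both subunits are needed in equal numbers with few exceptions, and their messages are among the most abundant of most cells. Many of these messages begin with a C and a run of pyrimidines, the terminal oligopyrimidine (TOP) tract, through which mTORC1 and LARP1 control their translation. Ribosomal protein genes also have many processed pseudogenes, so a probe for such a gene can read related transcripts.

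The shared start of these genes is shown because it is the sequence feature the family is known for. A promoter window, 250 bases before to 50 bases after the annotated start, was found by symbol for 42 of the 51 genes in the RefSeq promoter table of build GRCm38.p6, and the first window listed for a gene was used. Each line below gives 30 bases, 15 on either side of the position between the upstream and the transcribed part, on the transcribed strand from 5′ to 3′. Capitals mark the longest run of C and T in those bases. The 14 genes are members with a listed window that are described below, for the size of their change or a known role.
Rps15a (chr7:118116133-118116162, minus strand): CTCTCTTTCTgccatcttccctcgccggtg
Rps10 (chr17:27635230-27635259, minus strand): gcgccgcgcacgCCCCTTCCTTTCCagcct
Rps24 (chr14:24490663-24490692, plus strand): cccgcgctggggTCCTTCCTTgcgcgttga
Rps6 (chr4:86857353-86857382, minus strand): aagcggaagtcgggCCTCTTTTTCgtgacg
Rpl13a (chr7:45128731-45128760, minus strand): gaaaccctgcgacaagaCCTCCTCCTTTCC
Rpl27a (chr7:109519180-109519209, plus strand): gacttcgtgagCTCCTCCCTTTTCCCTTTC
Rpl38 (chr11:114668565-114668594, plus strand): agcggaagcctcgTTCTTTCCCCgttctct
Rplp2 (chr7:141447636-141447665, plus strand): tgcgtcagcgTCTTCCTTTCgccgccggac
Rps7 (chr12:28635939-28635968, minus strand): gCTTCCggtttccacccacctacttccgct
Rps4x (chrX:102189377-102189406, minus strand): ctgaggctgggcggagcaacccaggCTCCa
Rpl37 (chr15:5116598-5116627, plus strand): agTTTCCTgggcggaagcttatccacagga
Rps3 (chr7:99483695-99483724, minus strand): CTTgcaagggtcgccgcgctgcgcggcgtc
Rps19 (chr7:24884577-24884606, plus strand): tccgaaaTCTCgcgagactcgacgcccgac
Rpl22 (chr4:152325711-152325740, plus strand): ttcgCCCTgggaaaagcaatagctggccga

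In Rps10, Rps24, Rps6, Rpl27a, Rpl38 and Rplp2 the run spans the annotated start, and in Rps15a and Rpl13a a long run lies before or after it. In the other 6 genes, Rps7, Rps4x, Rpl37, Rps3, Rps19 and Rpl22, the longest run in these bases has 6 letters or fewer. Annotated starts can lie some bases from the true start, so a wider window was searched. A run of at least 8 bases of C and T on the transcribed strand, within 50 bases of the start, was present in 34 of 42 member windows (81.0%), against 35.7% of the 27025 genes in the promoter table. The shares were 79.2% for the large subunit (19 of 24) and 83.3% for the small subunit (15 of 18). The ETS family motif CCGGAAG, on either strand of the 300 bases, was present in 18 of 42 (42.9%) against 9.12% of all genes. The motif AAGATGGC of YY1 was found in 2 of 42 (4.76%, against 2.88%), and TATAAA in 4 of 42 (9.52%, against 14.2%). These are matches of letters in a window, and the 3 motifs were searched on both strands.

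The knockout was compared with wild type to find ribosomal protein genes whose transcript level differs when CD13 is absent. None of the 51 genes passed the test (limma, Benjamini-Hochberg adjusted p under 0.05 over all 10335 features). Their adjusted p-values ran from 0.216 to 0.998. Over all features, 10 passed (0.0968%), 5 in each direction (0.0484% higher and 0.0484% lower). At an unadjusted p under 0.05 there were 3 members, all lower in the knockout, against 9.35% of all features with 5.1% lower and 4.25% higher. Those 3 of 51 are a share close to that background.

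Most members had nearly equal values in the groups. Of the 51 genes, 45 (88.2%) had a log2 change smaller than 0.25 in either direction, against 62.7% of all features. Among the 7 lists of translation genes described below, this share ran from 63.6% (ribosome stress and quality control) to 88.9% (translation elongation). The median size of the change was 0.08 for the members and 0.18 for all features, both on the log2 scale. The 95% confidence interval of the change lay within 1 log2 unit of 0 for 48 of 51 members, against 78.3% of all features. For the members, the median distance from the centre of this interval to either end was 0.47, which is a 1.39-fold difference. That interval is not adjusted over all features, and the adjusted test needs larger differences, since the 3.49-fold lower value of Rps15a did not pass it. For 40 of 51 genes the change between genotypes was smaller than the larger of the gaps between the arrays of a group, a share close to that of all features (7534 of 10335).

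**Figure D1:**
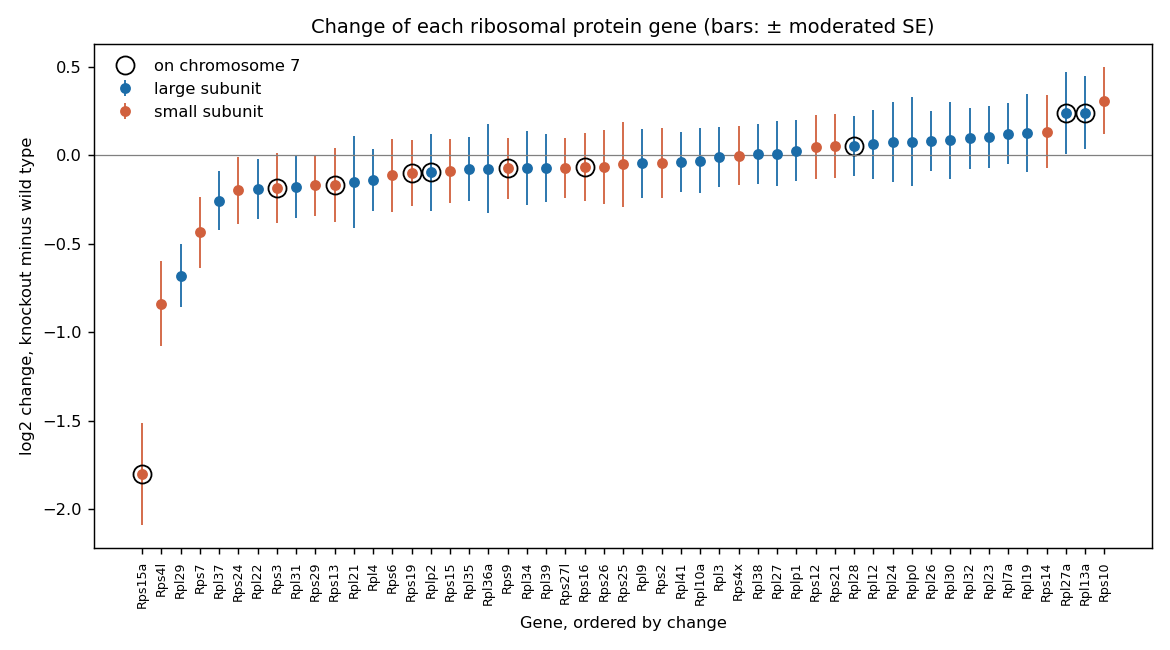
Log2 change (knockout minus wild type) of the 51 ribosomal protein genes, ordered from the lowest to the highest. Points are limma estimates and bars the moderated SE, blue for the large and orange for the small subunit, with rings on genes of chromosome 7, and 4 genes (Rps15a, Rps4l, Rpl29 and Rps7) lie below the others.

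The groups did not overlap for 13 of the 51 genes (25.5%), against 39.9% of all features. Knockout values were below both wild type values in 9 genes (17.6%, against 19.1% of all features) and above both in 4 (7.84%, against 20.8%). By subunit, 5 large and 4 small subunit genes lay below, and 3 large and 1 small subunit gene lay above.

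Large and small subunit genes were then set side by side. The median log2 change was -0.0023 for the 30 large subunit genes and -0.076 for the 21 small subunit genes, against 0.012 for all features. Knockout means were below wild type means for 15 of 30 large and for 17 of 21 small subunit genes, against 48.3% of all features. With arrays scaled to the median of detected probes, the small subunit median was 0.017 and that of all features 0.035. The sign of the small subunit median, and with it this count, therefore depended on the processing. The difference of the medians, large minus small, was 0.074 on the log2 scale. It had this sign in each of the other 21 settings computed, from 0.044 to 0.114. These settings are not independent checks, since all reuse the same arrays or a part of them. An intensity trend and the replicate number as a block left it unchanged at 0.074. So did keeping only probes detected on every array, and choosing probes by mean log2 value. Scaling to the median of all probes or of detected probes gave the same 0.103. No test was made of a value over the members.

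Array by array, each gene's value was taken relative to its own mean over the 4 arrays. The median of the large subunit genes was then -0.094 on WT 1, 0.081 on WT 2, -0.027 on KO 1 and 0.018 on KO 2. For the small subunit genes it was -0.033, 0.125, -0.065 and -0.023 in the same order. Both subunits were highest on WT 2, and the wild type arrays lay on either side of the knockout arrays for the large subunit. Large minus small was -0.060 on WT 1, -0.044 on WT 2, 0.037 on KO 1 and 0.041 on KO 2, so the groups did not overlap in this difference. Its SD between the arrays of a group was 0.0083. With 2 arrays per group that SD is itself imprecise, and it is no measure of the spread between animals.

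**Figure D2:**
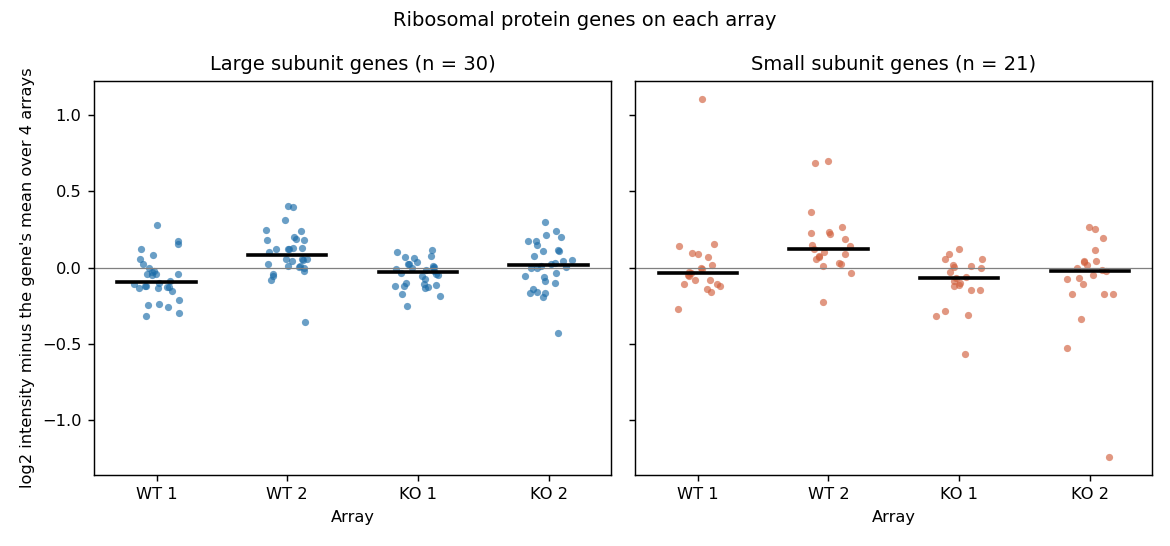
Log2 intensity of each ribosomal protein gene on each array, relative to that gene's mean over the 4 arrays, for the large (left) and small (right) subunit. Points are genes and bars their median; the medians are highest on WT 2, at 0.081 and 0.125, and the outlying small subunit points on WT 1 and KO 2 are Rps15a.

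For the family as a whole, the wild type arrays differed from each other by more than the groups did. In wild type, 40 of 51 genes (78.4%) were higher on WT 2 than on WT 1, with a median gap of 0.17, where 51.1% of all features were. In the knockout, 30 of 51 were higher on KO 2 than on KO 1, with a median gap of 0.051. The median log2 change of all 51 genes was -0.052. It was -0.14 without WT 1 and 0.042 without WT 2, so its direction depended on which wild type array was used. It was 0.10 with arrays scaled to the median of detected probes and -0.26 with arrays scaled to the median of all probes, where the median of all features itself moved to -0.33. Relative to all features, it was 0.068 under both of these scalings and -0.064 in the main processing. No direction is therefore given for the family.

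Rps15a, a protein of the small subunit, had the largest change of the family. Its log2 intensity was 9.01 on WT 1, 8.60 on WT 2, 7.34 on KO 1 and 6.66 on KO 2. Both knockout values lay below both wild type values, and the arrays of each group also differed clearly. The log2 change was -1.80 ± 0.29 (SE, n = 2 per group), or 3.49-fold lower, with a limma adjusted p of 0.216. The deposited intensities were 845 and 498 in wild type and 241 and 154 in the knockout. This gene has 1 probe in the annotation, so no other probe could be set beside it. The log2 change lay between -2.14 and -1.25 over 17 other settings. It passed in 1 of them, with arrays scaled to the median of all probes (limma adjusted p = 0.0106), where all features shifted downward.

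Rps4l and Rps4x are paralogues that encode forms of the same small subunit protein, from an autosome and from the X chromosome. For Rps4l the log2 intensities were 7.89 (WT 1) and 8.42 (WT 2) against 7.42 (KO 1) and 7.21 (KO 2). Its knockout values were below both wild type values, with a log2 change of -0.84 ± 0.24 (SE) and a limma adjusted p of 0.402. The log2 change of Rps4l was -0.58 without WT 2 and -1.10 without WT 1. Its deposited intensities were low, at 462 and 454 in wild type and 250 and 185 in the knockout. Rps4x gave 15.19 and 15.22 in wild type and 15.20 and 15.20 in the knockout, the smallest change of any small subunit gene (0.00 ± 0.17, SE, after rounding). The probes of such close paralogues may read both transcripts.

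Rpl29, a large subunit protein, had log2 intensities of 13.47 and 13.60 in wild type and 12.94 and 12.76 in the knockout. The groups were separated, and the gap was wider than that between the arrays of either group. Its log2 change was -0.68 ± 0.18 (SE), a 1.60-fold lower level, with a limma adjusted p of 0.370. Rps7, a small subunit protein whose gene is mutated in some patients with Diamond-Blackfan anaemia, gave 14.90 and 15.20 against 14.73 and 14.50. These groups were separated by a smaller distance than the gap between the wild type arrays, with a log2 change of -0.44 ± 0.20 (SE) and a limma adjusted p of 0.600.

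Among the other large subunit genes with the smallest p-values, Rpl37 had log2 intensities of 15.54 and 15.49 in wild type and 15.27 and 15.25 in the knockout. The groups did not overlap, and the log2 change was -0.26 ± 0.17 (SE). Rpl22, an RNA-binding protein needed for the development of alpha-beta T cells in mice, gave 10.63 and 10.70 against 10.44 and 10.51. Rpl31 gave 15.43 and 15.26 against 15.13 and 15.20. In each of these 3 genes the knockout values lay below the wild type values by less than 0.5 log2 units. Rpl13a, which in human monocytes is released from the ribosome after interferon-gamma treatment and represses inflammatory messages, gave 10.49 and 10.84 against 10.81 and 11.00. Rpl27a gave 14.96 and 14.48 against 14.83 and 15.07. For these last 2 genes the groups overlapped, with log2 changes of 0.24 ± 0.21 and 0.24 ± 0.23 (SE). The limma adjusted p of the 5 genes lay between 0.715 and 0.821.

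In the small subunit, Rps10 was the member with the highest log2 change, 0.31 ± 0.19 (SE, limma adjusted p = 0.706). On WT 1 and WT 2 it gave log2 intensities of 13.18 and 13.41, and on KO 1 and KO 2 of 13.51 and 13.70, so both knockout values lay above. Rps24 gave 15.07 and 15.33 against 15.07 and 14.93, with overlap. Rps29 gave 15.53 and 15.51 against 15.29 and 15.41, with both knockout values lower. Their log2 changes were -0.20 ± 0.19 and -0.17 ± 0.17 (SE). The genes of Rps10 and Rps24 are, like that of Rps7, among those mutated in Diamond-Blackfan anaemia in humans, and the measured values of the 3 lay on either side of 0.

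The stalk of the large subunit, made of Rplp0, Rplp1 and Rplp2, recruits the elongation factors that drive translation. Rplp0, its base, gave log2 intensities of 8.28 and 8.83 in wild type and 8.49 and 8.77 in the knockout. The probe of Rplp0 was dim, with a mean deposited intensity of 483, against 54375 for Rplp1 and 21045 for Rplp2. How well it reads the Rplp0 message was not tested. Rplp1 gave 15.68 and 15.72 against 15.66 and 15.79, and Rplp2 gave 14.20 and 14.60 against 14.42 and 14.18. The groups overlapped in all 3, with log2 changes between -0.10 and 0.08.

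Several members with known roles outside the ribosome or in its regulation also overlapped between the groups. Rps6, the target of the S6 kinases below mTORC1, gave 13.55 and 13.88 in wild type and 13.72 and 13.48 in the knockout. Rps3, at the entry of the messenger RNA channel, gave 14.19 and 14.54 against 14.16 and 14.21. Rps19, the gene most often mutated in Diamond-Blackfan anaemia, gave 15.01 and 15.21 against 14.91 and 15.11. Their log2 changes were -0.11, -0.18 and -0.10. Rps14, which is needed for maturation of the small subunit and of red cells, gave 15.30 and 14.99 against 15.14 and 15.41, a log2 change of 0.13. Rps27l, a paralogue of Rps27 that p53 induces, gave 13.70 and 13.78 against 13.71 and 13.63, a log2 change of -0.07. Rpl38, which affects the translation of Hox messages in mouse embryos, gave 15.39 and 15.42 against 15.40 and 15.42, and it had, with Rpl27 and Rpl3, the smallest changes of the large subunit. Rpl27 gave 14.35 and 14.60 against 14.46 and 14.50, and Rpl3, which lies near the centre where peptide bonds form, gave 14.96 and 15.05 against 14.95 and 15.05. In the small subunit the smallest changes after Rps4x were those of Rps2 and Rps12, at -0.04 and 0.05. Rps2 gave 15.42 and 15.63 against 15.63 and 15.33, and Rps12 gave 15.45 and 15.61 against 15.65 and 15.51. The groups overlapped in these 4 genes.

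Most of the probes used for these genes are bright, and high brightness can limit what a fold change shows. Of the 51 probes used, 34 to 40 had a deposited intensity over 10000 on a given array. The brightest member probe reached 48812 to 65171, where the highest value of any probe was 54570 to 72131. No source used here states whether any probe was saturated. The 39 members with a mean intensity over 10000 had a median size of the log2 change of 0.076, and the 12 at or below it of 0.13. Rps15a and Rps4l belong to the 12, and Rpl29 and Rps7 to the 39. The part of brightness in these differences was not tested.

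**Figure D3:**
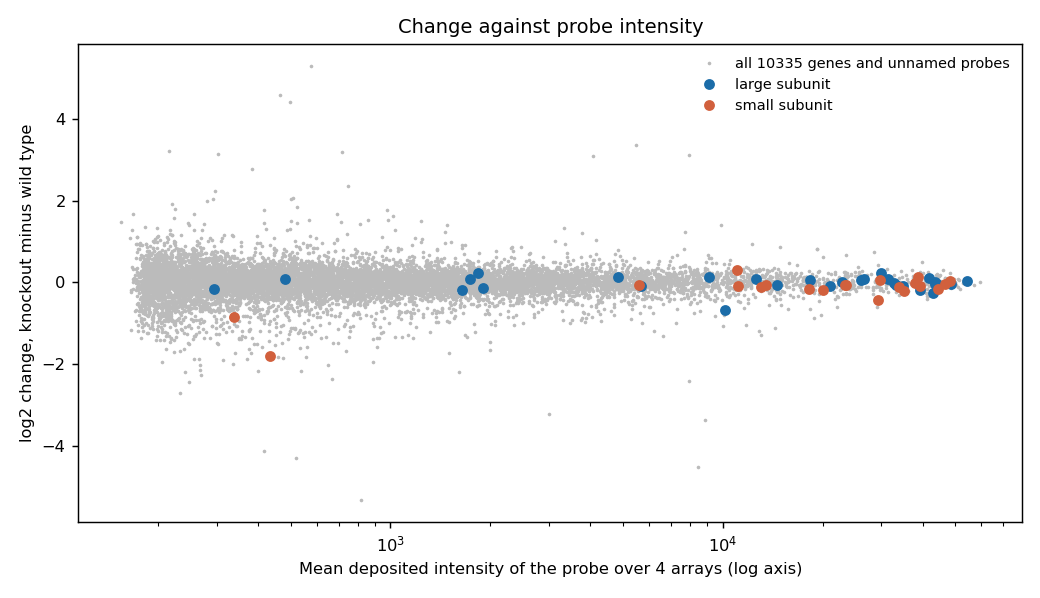
Log2 change (knockout minus wild type) against the mean deposited intensity of the probe on a log axis. Grey points are all 10335 genes and unnamed probes, blue and orange points the large and small subunit genes, of which 39 lie above an intensity of 10000.

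Several kept probes were available for 14 of the 51 genes, 19 probes beside those used. The lowest and highest log2 change of a gene's probes differed by at most 0.47 in 12 of the 14. Rpl29 was an exception. Its other probe had log2 intensities of 11.83 and 11.79 in wild type and 10.71 and 6.85 in the knockout, a log2 change of -3.03 ± 1.15 (SE, limma adjusted p = 0.525 over every kept probe). The direction was the same as for the probe used, and KO 2 alone carried most of the size. With all kept probes of a gene averaged, the log2 change of Rpl29 was -1.86.

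Rps13, a small subunit protein, was the other exception. The probe used gave 14.27 and 14.15 in wild type and 13.84 and 14.24 in the knockout, a log2 change of -0.17 ± 0.21 (SE). A second probe, with deposited intensities of 611 and 277 in wild type and 136 and 122 in the knockout, was above background on the wild type arrays alone. It was at least 2.72-fold lower in the knockout, measured against the lowest value of a detected probe on each array. This probe passed the filter only through the group where it is bright, so its direction was fixed by the filter and its fold is a description without a test. The values of the bright probe overlapped between the groups.

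**Figure D4:**
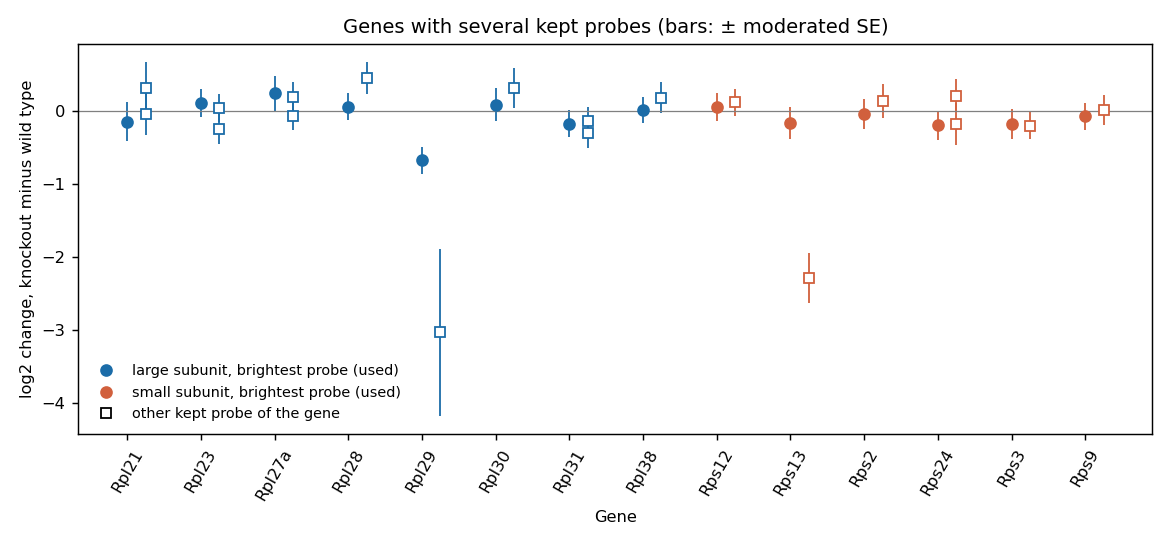
Log2 change (knockout minus wild type) of every kept probe of the 14 genes with several. Filled circles are the brightest probe of a gene, open squares its other probes, and bars the moderated SE; second probes of Rpl29 (-3.03) and Rps13 (-2.29, a fitted value of a probe not above background in the knockout) lie far below the rest.

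Anpep, which encodes CD13, lies on chromosome 7, as do 10 of the 51 members. Neighbourhood was taken from assembly GRCm38.p6, and the deposited files name no build. None of the 10 lay within 10 Mb of Anpep, and the nearest was Rps3. The groups did not overlap for 1 of the 10, Rps15a, against 39.9% of all features and 44.9% of the 626 features on chromosome 7, and overlapped for the other 9 (Rpl13a, Rpl27a, Rpl28, Rplp2, Rps3, Rps9, Rps13, Rps16 and Rps19). All 6 small subunit genes on the chromosome had knockout means below wild type, with a median log2 change of -0.14, and 1 of the 4 large subunit genes did, with a median of 0.14. The 10 genes had a median of -0.086 and the 41 on other chromosomes of -0.044. Without chromosome 7, large minus small was 0.044.

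The targeted gene checks the labels. Anpep had log2 intensities of 13.58 and 13.40 in wild type and 11.12 and 11.03 in the knockout, 5.33-fold lower (limma adjusted p = 0.0261). All 9 macrophage markers on the array, among them Csf1r, Adgre1 and Lyz2, were above background. Summed on the normalized linear scale, they gave 134401 and 134436 in wild type and 123578 and 118597 in the knockout, without overlap. Among the 9, the log2 change ran from -1.59 (Itgam) to 0.36 (Fcgr1). All 7 large peritoneal macrophage markers on the array were detected. Their summed level was 11339 on WT 1, 25485 on WT 2, 8835 on KO 1 and 7943 on KO 2. B cell markers summed to 3939 and 4717 in wild type and 2172 and 3613 in the knockout, with 5 of 6 detected. Cd22 went against this sum, with both knockout values above wild type (log2 change 0.93). Ms4a1 was above background on the 2 wild type arrays only, with deposited intensities of 289 and 286 against 140 and 137. It passed the filter only through the group where it is bright, so its direction was fixed by the filter. Dendritic cell markers, with Cd209a and Itgax detected of 6, summed to 397 and 766 against 1069 and 868. Only Itgax was higher in the knockout, with a log2 change of 2.07. Cd209a overlapped between the groups, with a log2 change of -0.93. Of the 7 T and NK cell markers Lat alone was detected, from 116 and 262 to 830 and 625, and Cd3e, Cd3d and Cd3g were not. The sum of neutrophil markers overlapped (1037 and 2642 against 2612 and 2250, 3 of 8 detected, Elane and Mpo not). Of the 3, Ltf had both knockout values above wild type (log2 change 2.00), and S100a8 and S100a9 overlapped. Mast cell and basophil markers overlapped in their sum (318 and 434 against 186 and 366, 3 of 7 detected). Among these, Cpa3 had both knockout values below wild type (log2 change -0.80), and Cma1 and Kit overlapped. The sum of small peritoneal macrophage markers overlapped too (105584 and 76739 against 77515 and 96715, 4 of 6 detected), as did H2-Ab1 and Cd74. Irf4 and Retnla had both knockout values below wild type, each with a log2 change of -0.55. The sum of erythroid and platelet markers was lower in the knockout (6454 and 8184 against 5664 and 4005, 2 of 5 detected). Most of this sum was Pf4, with both knockout values below wild type (log2 change -0.60). Hba-a1 overlapped between the groups (log2 intensities 8.28 and 9.25 against 8.54 and 7.47). No eosinophil or mesothelial marker was detected. No marker gene passed the test. The part of cell composition in the ribosomal values was not tested, and fewer cells of a type and less RNA per cell cannot be told apart in such samples.

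Other genes of translation were counted from lists to place the family. No measured gene of any of the 7 lists passed over all features. Translation elongation genes gave a median log2 change of -0.031 over 9 measured genes, 4 higher and 5 lower. Eef1a2, a factor of muscle and neurons, was dim and variable, with log2 intensities of 5.85 and 6.78 in wild type and 7.19 and 8.80 in the knockout, and above background on 3 arrays (limma adjusted p = 0.489). Eef1d was at 0.11 and Eef1b2 at -0.13, both subunits of the factor that reloads eEF1A with GTP. Eef2, the translocase, gave 13.07 and 12.76 against 12.75 and 12.72. Initiation factors had a median of -0.040 over 38 genes, 17 higher and 21 lower. The smallest p-values were those of Eif3k (0.30) and Eif2b1 (0.27) among the higher genes and of Eif2s2, the beta subunit of eIF2 (-0.43), and Eif1b (-0.55) among the lower.

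Genes linked to the ribosome but outside the symbol rule had a median of -0.12 over 8 genes, 7 of them lower. Knockout values lay below both wild type values in 5 of the 8 (62.5%, against 19.1% of all features). Rpl22l1, the paralogue of Rpl22, is counted in both, although it was above background on the wild type arrays alone and passed the filter only through them. It was at least 1.45-fold lower in the knockout, a description without a test. Rsl1d1, a nucleolar protein, was at -0.24, and Rpl36al, a paralogue of Rpl36a, at 0.04. The 20 genes of mTORC1 and TOP regulation had a median of 0.011, 11 higher and 9 lower. Rragd, a GTPase that brings mTORC1 to the lysosome, was at 0.49 ± 0.17 (SE) and Tsc1, an inhibitor of mTORC1, at 0.34 ± 0.19. Larp1, which binds TOP messages, was at -0.37 ± 0.21 (SE) and Ddit4, another inhibitor of mTORC1, at -0.28 ± 0.18. The limma adjusted p of these 4 lay between 0.487 and 0.709.

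Ribosome biogenesis factors had a median log2 change of -0.074 over 75 genes, 50 lower and 25 higher. Myc, which drives transcription of these genes, gave 7.67 and 7.50 in wild type and 7.12 and 7.04 in the knockout, with no overlap (log2 change -0.50 ± 0.18, SE, limma adjusted p = 0.497). Nop56, a core protein of box C/D small nucleolar particles, was at -0.40 ± 0.21 (SE). In the other direction, Riok1, a kinase of small subunit maturation, was at 0.42 ± 0.21 (SE), and Nop9 at 0.34 ± 0.17. The 11 genes of ribosome stress and quality control had a median of -0.020, 4 higher and 7 lower. Pelo, which rescues stalled ribosomes, was at 0.29 and Zfp598, which marks collided ribosomes, at 0.34, while G3bp1, a stress granule protein, was at -0.29 and Cdkn1a, a p53 target, at -0.22.

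Mitochondrial ribosomal proteins, which serve a separate ribosome, had a median log2 change of 0.091 over 70 genes, 51 higher and 19 lower. Knockout values lay above both wild type values in 21 of the 70 (30.0%, against 20.8% of all features) and below both in 2 (2.86%, against 19.1%). The smallest p-values of the higher genes were those of Mrps9 (0.40 ± 0.17, SE) and Mrps10 (0.46 ± 0.20). Of the lower genes they were those of Mrps15 (-0.29 ± 0.27, SE) and of Mrps27, which was above background on the wild type arrays alone and at least 1.08-fold lower in the knockout. Mitochondrial ribosomal genes were also higher on KO 2 than on KO 1 in 57 of 70, and on WT 2 than on WT 1 in 51 of 70.

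**Figure D5:**
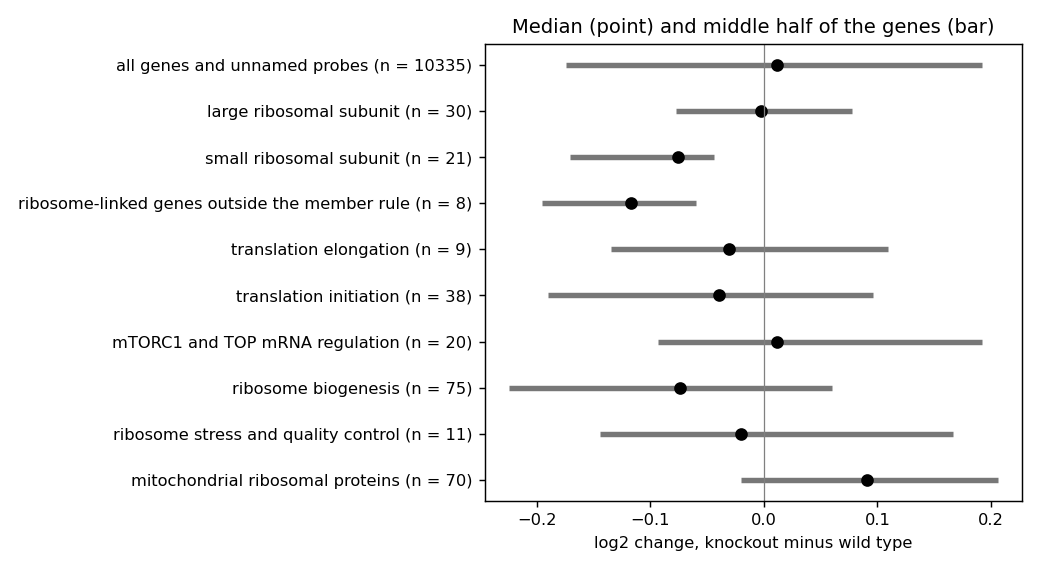
Median log2 change (knockout minus wild type, points) and the range from the lower to the upper quartile (bars) for the large and small ribosomal subunit, 7 lists of translation genes and all features. The medians run from -0.12 for ribosome-linked genes to 0.091 for mitochondrial ribosomal proteins, all inside the bar of all features.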

How the data were processed

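Biotin-labelled cRNA of 4 samples was hybridised to Illumina MouseWG-6 BeadChips, per the series text. The authors deposited non-normalized intensity values and, beside each, a detection p-value; GenomeStudio is named by the submitters' processing notes, and no source used here gives its version or background handling. The authors also deposited quantile-normalized intensity values, per the series text. From the non-normalized values, normexp background correction informed by the detection p-values (offset 16), quantile normalization and log2 were computed (neqc in R 4.3.3 with limma 3.58.1). The platform annotation gave a single symbol to 34885 of the 45281 probes, several to 18 and none to 10378, and 34807 matched the RefSeq table of GRCm38.p6 by gene ID. A probe was kept if detected at p under 0.01 on at least 2 arrays (14881), and the probe with the highest mean intensity stood for a gene. The groups were compared (knockout minus wild type) with lmFit and eBayes over 10335 features, Benjamini-Hochberg adjusted at 0.05. An exact two-sided permutation test of 2 arrays against 2 has 0.333 as its smallest p. A check on simulated data drew independent errors from the fit's own variance model, so it cannot tell how the fit behaves on these arrays. Precision is limited by having 2 arrays per group. Named genes followed a rule: the 6 members per subunit with the smallest p, the 3 with the smallest change, the stalk, paralogues, genes on the chromosome of Anpep, genes with disagreeing probes, members of known roles, and the 2 genes of each list with the smallest p per direction. Members and lists were chosen with earlier results of these data known. Rpl5, Rpl11 and Rps27a, also in that rule, were not analysed here. Alternatives covered background correction, normalization, filter, probe choice, variance model, replicate number, single arrays and the member rule.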

Additional observations from a re-analysis of the deposited data

How the results depend on the processing

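Calls over all features, 5 higher and 5 lower, became 14 higher and 187 lower (201) with arrays scaled to the median of all probes, 6 in all without the filter on dim probes, 4 for probes detected on all 4 arrays, 16 with an intensity trend, 966 at an unadjusted p under 0.05, and 5 to 12 without single arrays. Scaling to the median of all probes moved the share of lower calls because the median of all features moved to -0.33; there 1 ribosomal protein gene, Rps15a (-2.14, adjusted p = 0.0106), passed. At an unadjusted p under 0.05 there were 3. In the other 20 settings 0 members passed. The medians of all, large and small subunit genes were -0.26, -0.24 and -0.35 with that scaling and 0.10, 0.12 and 0.017 with scaling to detected probes. Without single arrays they ranged from -0.14 to 0.042, from -0.11 to 0.082 and from -0.16 to -0.0089. Large minus small was 0.103 with either scaling, 0.114 with cyclic loess, 0.089 without the filter, 0.082 with Rpl36al taken in, 0.044 without chromosome 7, and 0.049 to 0.091 without single arrays. Signs turned for Rpl37 (0.014), Rpl31 (0.037) and Rps29 (0.13) with scaling to detected probes, for Rpl13a (-0.11), Rpl27a (-0.0039) and Rps10 (-0.020) with scaling to all probes, and for Rpl27a without WT 2 (range -0.0043 to 0.48 without single arrays). For these shifts the cause was not tested. Anpep was at -2.41 without the filter (adjusted p = 0.0551, more features tested) and at -2.50 to -2.33 without single arrays, where its adjusted p was 0.123 to 0.173, against 0.00053 to 0.173 over its 17 settings; fewer arrays remain there, and a lone array is taken to vary as the other group does. The replicate number as a block gave 13 calls over all features and 0 members. Deviations of same-numbered arrays correlated at -0.0021 across 10335 features. With a single gap per group, this value cannot tell whether the numbers pair the arrays, and the array titles give only group and number. Taking in Rps3a1, and leaving out Rps15a, Rps4l, Rpl29 and Rps7, were added after seeing the data and left each median within its spread between arrays. Signal close to background limits Rps15a and Rps4l, and 2 arrays per group limit all values.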
